A study of Mus musculus with 2 samples.

Results

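The Wnt pathway genes examined here are secreted Wnt ligands, their Frizzled receptors and LRP co-receptors, the secreted proteins that restrain or amplify Wnt signals, and the Dishevelled, Axin and beta-catenin proteins that relay the signal inside the cell. Members were chosen by gene symbol from the probe sets whose platform annotation names 1 gene. This gave 54 genes on 58 probe sets, of 22180 named genes on 34472 probe sets in all. They comprise 19 Wnt ligands, 10 Frizzled receptors, 2 LRP co-receptors, 4 Dickkopf proteins, 6 secreted Wnt-binding inhibitors, 4 R-spondins, 3 LGR receptors, 3 Dishevelled proteins, 2 Axins and beta-catenin. All 54 symbols matched their gene identifiers in the RefSeq gene table.

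The material was ribosome-bound RNA of the medial prefrontal cortex of adult D2Cre::RiboTag mice. In these animals Cre recombinase driven from the dopamine D2 receptor gene, Drd2, switches on a haemagglutinin-tagged ribosomal protein, and ribosomes carrying the tag are precipitated with an antibody to it. A cell keeps the tag once Cre has acted, whether or not it still uses Drd2. The sample titles name mRNA of Drd2+ cells, and the labels give each array as a technical replicate from 5 pooled mice. They are taken to share that pool, which the labels leave unsaid, and to form 1 group with 0 biological replicates. On that reading the spread between arrays measures labelling, hybridisation and any earlier step that was repeated, and not variation between animals. No unprecipitated cortex and no mock precipitation was analysed here, so a signal is not an enrichment. It also cannot be told apart whether a low signal comes from few captured cells with the transcript or from little of it per cell.

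In the canonical Wnt pathway, a Wnt protein bridges a Frizzled receptor and LRP5 or LRP6, Dishevelled is recruited, and the complex of Axin, APC and the kinase GSK3 stops marking beta-catenin for destruction. Beta-catenin then enters the nucleus and acts with TCF and LEF factors on target genes such as Axin2. Other Wnt signals run through planar polarity proteins or calcium. In the adult brain Wnt proteins are known for roles at synapses and in keeping the barrier of brain vessels, and GSK3 is also an effector of dopamine D2 receptors.

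The values lie in the range of log2 signals and are read as such. Because the design has no control sample, background was set within each array from 1373 chemoreceptor genes, the receptors of the nose (olfactory and vomeronasal), at their 95th percentile. This background threshold was 5.61 on replicate 1 and 5.64 on replicate 2, and a gene was called above it when it exceeded it on both arrays. A stricter threshold was the 95th percentile of 34 genes of testis, liver and skeletal muscle, at 7.22 on replicate 1 and 6.97 on replicate 2. Of these out-of-tissue genes, 10 themselves exceeded the background threshold, so a call just over that threshold says little. No p-value is given, and the signal of one gene is not ranked against that of another, since probe sets bind with different strength.

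The labelled cells were checked first. Drd2 gave 10.78 on replicate 1 and 10.70 on replicate 2, above both thresholds. Rpl22, the ribosomal protein gene that carries the tag in RiboTag mice, gave 6.71 and 6.75, above background and below the stricter threshold. All 10 neuronal markers exceeded the stricter threshold, and their mean signals lay between 8.85 and 13.70. Markers of other cells of the cortex also gave signal: 10 of 10 astrocyte, 8 of 8 oligodendrocyte, 6 of 6 oligodendrocyte precursor, 8 of 8 microglial, 9 of 10 endothelial, 8 of 8 mural and 7 of 9 meningeal fibroblast markers exceeded background. At the stricter threshold these counts were 8, 6, 1, 3, 2, 3 and 2. Of all named genes, 60.6% exceeded background and 38.7% the stricter threshold. Of these lists, only the astrocyte (80%) and oligodendrocyte (75%) shares lay above that 38.7%, and the others between 16.7% and 37.5%. Pdgfra stands in both the precursor and the fibroblast list. Pdgfra and Ptgds were the 2 fibroblast markers over the stricter threshold. Of 7 choroid plexus and ependymal markers, 2 exceeded background and 0 the stricter threshold. The part of such cells in the signals of the Wnt genes was not tested.

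Of the 54 members, 44 (81.5%) exceeded background, against 60.6% of all named genes. The named genes include the 1373 chemoreceptor genes, few of which can exceed a threshold set at their own 95th percentile. Their inclusion lowers the 60.6%, here and wherever it is given. The order of these shares depended on the threshold. At the chemoreceptor 99th percentile, 21 members (38.9%) passed, against 44.8% of all named genes, and at the stricter threshold 18 members (33.3%), against 38.7%. The members' median signal was 6.24, against 6.36 over all named genes. Many members lay just over background: 16, with the uncalled Wnt6 among them, stood up to 0.5 log2 units above the mean of both arrays' thresholds, 8 between 0.5 and 1, 8 between 1 and 2, and 13 more than 2 units above.

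**Figure D1:**
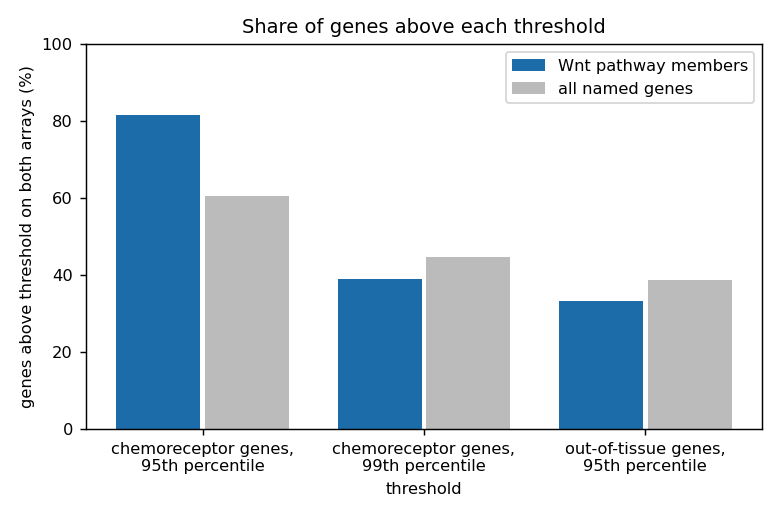
Share of genes above each of 3 thresholds on both arrays, in percent, for the 54 Wnt pathway members (blue) and all 22180 named genes (grey). Members have the larger share at the chemoreceptor 95th percentile (81.5% against 60.6%) and the smaller one at both higher thresholds.

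The 18 members above every threshold were Wnt4, Wnt7b, Wnt9a and Wnt10a among the ligands, Fzd1, Fzd3 and Lrp6 among the receptors, Dkk3 and Frzb among the secreted inhibitors, Rspo1, Rspo2, Rspo3 and Lgr4 of the R-spondin branch, and Dvl1, Dvl3, Axin1, Axin2 and Ctnnb1 inside the cell. By compartment, 9 of 33 secreted proteins (27.3%), 4 of 15 membrane proteins (26.7%) and 5 of 6 intracellular proteins (83.3%) exceeded the stricter threshold. Of all named genes, 38.7% did. Above background were 26 of 33 (78.8%), 12 of 15 (80%) and 6 of 6, against 60.6% of all named genes.

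**Figure D2:**
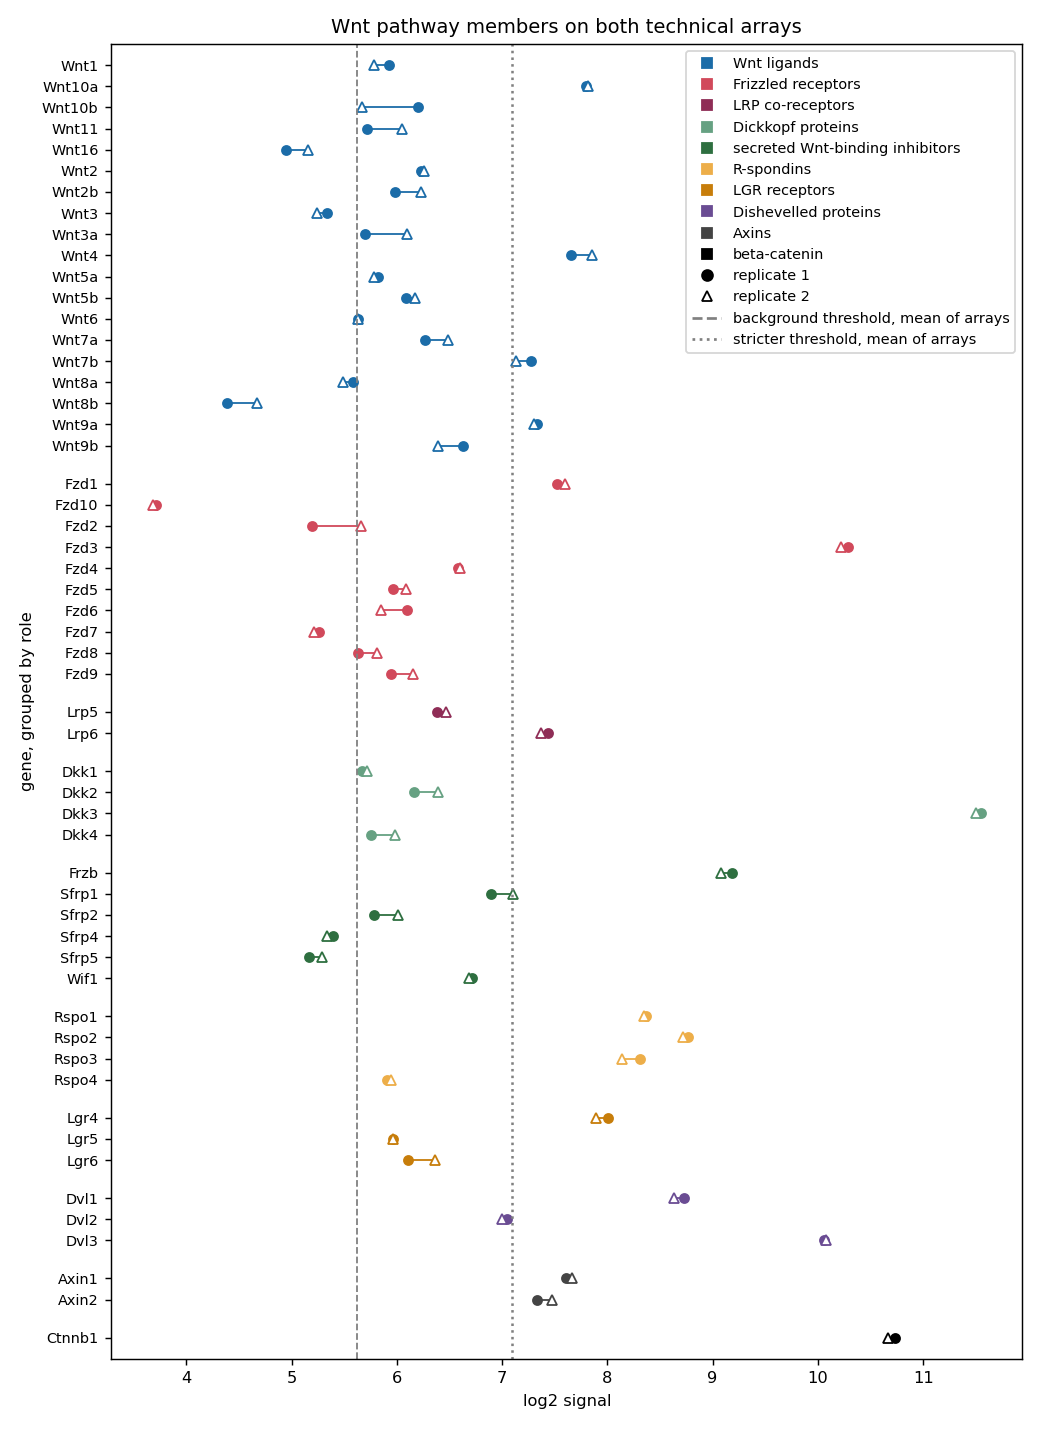
Log2 signal of each of the 54 members on replicate 1 (filled circles) and replicate 2 (open triangles), grouped and coloured by role, with the background threshold (dashed) and the stricter threshold (dotted), each drawn at the mean of both arrays. Signals run from Fzd10 at 3.71 and 3.68 to Dkk3 at 11.55 and 11.50, and most ligands lie between the 2 lines.

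Sequence around the start of a gene is a property that the choice of members did not use. RefSeq windows of 300 bases (250 before to 50 after the start, build GRCm38.p6) were at hand for 36 of the 54 members, 40 windows in all. Windows are printed for 3 members above the stricter threshold and for 2 members not above background, one of these CpG-dense and one CpG-poor. CpG dinucleotides, written in capitals, are the sites of DNA methylation in mammals and are dense at the starts of many widely used and developmental genes.
Wnt9a, 58 CpG, chr11:59306680-59306979, + strand: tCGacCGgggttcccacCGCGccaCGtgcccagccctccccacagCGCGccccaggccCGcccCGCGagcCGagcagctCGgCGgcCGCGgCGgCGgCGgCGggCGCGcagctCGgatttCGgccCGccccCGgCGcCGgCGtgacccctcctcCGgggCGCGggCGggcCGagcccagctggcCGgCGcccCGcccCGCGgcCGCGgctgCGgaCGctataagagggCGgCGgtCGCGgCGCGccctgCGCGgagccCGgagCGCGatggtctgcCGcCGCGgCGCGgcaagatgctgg
Ctnnb1, 51 CpG, chr9:120933328-120933627, + strand: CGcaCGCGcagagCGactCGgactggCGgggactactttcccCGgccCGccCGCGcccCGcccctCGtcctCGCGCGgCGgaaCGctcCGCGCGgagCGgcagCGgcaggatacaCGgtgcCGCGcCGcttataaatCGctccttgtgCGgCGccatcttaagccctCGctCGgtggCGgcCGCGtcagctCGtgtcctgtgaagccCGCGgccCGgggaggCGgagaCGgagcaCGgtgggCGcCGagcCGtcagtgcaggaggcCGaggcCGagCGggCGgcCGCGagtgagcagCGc
Axin2, 31 CpG, chr11:108920099-108920398, + strand: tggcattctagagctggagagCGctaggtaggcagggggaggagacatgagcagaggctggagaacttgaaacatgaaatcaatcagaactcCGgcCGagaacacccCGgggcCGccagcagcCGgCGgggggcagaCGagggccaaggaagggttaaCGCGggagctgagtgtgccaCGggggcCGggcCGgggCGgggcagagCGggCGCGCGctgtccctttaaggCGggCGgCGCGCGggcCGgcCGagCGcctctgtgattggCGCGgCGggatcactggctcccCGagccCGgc
Fzd10, 45 CpG, chr5:128600856-128601155, + strand: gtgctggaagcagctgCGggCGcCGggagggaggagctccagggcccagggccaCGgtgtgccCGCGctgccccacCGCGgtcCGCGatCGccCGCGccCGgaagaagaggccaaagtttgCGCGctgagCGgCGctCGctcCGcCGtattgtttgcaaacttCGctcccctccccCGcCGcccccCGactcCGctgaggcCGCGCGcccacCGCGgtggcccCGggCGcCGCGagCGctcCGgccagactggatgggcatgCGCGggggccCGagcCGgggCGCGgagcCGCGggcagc
Wnt8b, 6 CpG, chr19:44493222-44493521, + strand: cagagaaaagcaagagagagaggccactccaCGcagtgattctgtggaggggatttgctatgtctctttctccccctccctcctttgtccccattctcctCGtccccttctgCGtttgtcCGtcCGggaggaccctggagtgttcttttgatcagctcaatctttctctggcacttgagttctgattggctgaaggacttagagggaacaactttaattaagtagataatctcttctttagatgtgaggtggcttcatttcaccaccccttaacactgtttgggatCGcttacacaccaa

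Wnt9a, Ctnnb1 and Axin2 exceeded the stricter threshold, whereas Fzd10 and Wnt8b were not above background, so that a CpG-dense window stood beside a high signal at Ctnnb1 and beside a low one at Fzd10. Where a gene had several windows, the one with most CpG was counted. On that count the printed Wnt9a and Wnt8b were the extremes of the 36 members, at 58 and 6 CpG. The 10 members above the stricter threshold had a median of 30.5 CpG and reached down to 16. The 26 members not above it had a median of 26.5. By the background call, the median was 30 CpG per window over the 29 members above background and 24 over the 7 members not above it. Over all named genes with a window the medians were 22 for 10545 genes above background and 3 for 6373 genes not above it. The 7 members not above background were Wnt3 and Fzd7 with 24 CpG each, Wnt6 with 31, Fzd10 with 45, Sfrp5 with 15, Wnt16 with 10 and Wnt8b with 6. These counts are descriptions, and the 18 members without a window are not covered by them.

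**Figure D3:**
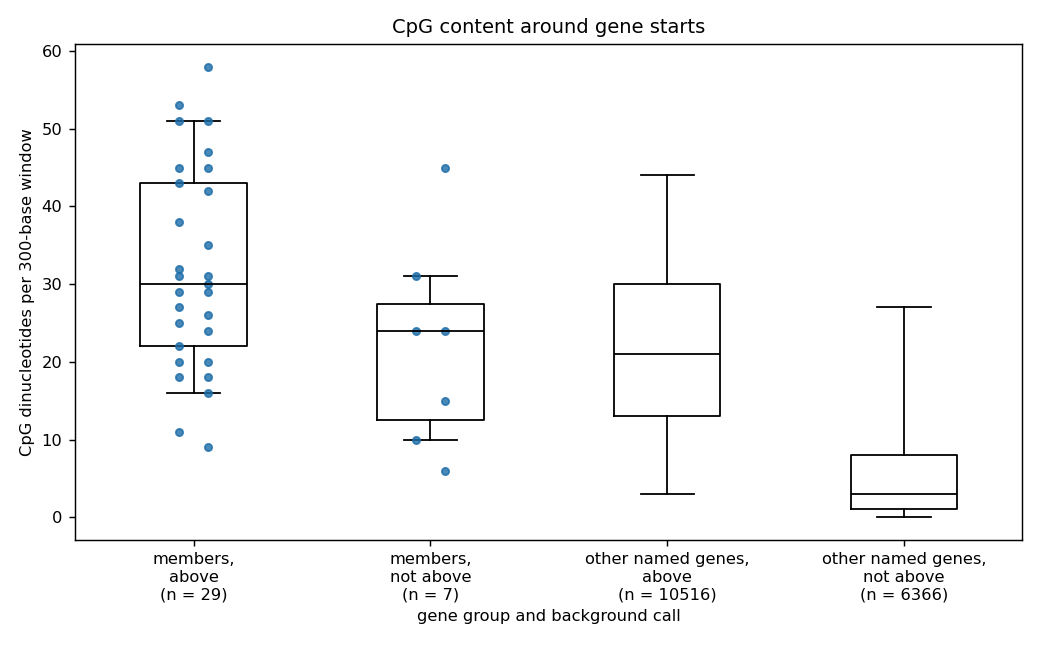
CpG dinucleotides in the 300-base window around the gene start, for members above and not above background and for the other named genes split the same way. Boxes show the quartiles with the median as a line, whiskers the 5th and 95th percentiles, and points the single members; medians are 30, 24, 21 and 3.

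The windows were also searched on both strands for the short TCF and LEF sequences CTTTGAT and CTTTGAA, through which beta-catenin acts. A match was found in 3 of the 40 member windows (7.50%), against 8.65% of all 32851 windows of the table. The matching stretches are shown with the motif in capitals and the CpG count of the window that holds the match. Wnt5b also had windows with 4 and 47 CpG, and Wnt11 one with 23, all without a match. In Wnt11 the capitals are the reverse complement of CTTTGAT, which lies on the strand opposite to the printed one.
Dkk1, 9 CpG in its window, chr19:30549587-30549633, - strand: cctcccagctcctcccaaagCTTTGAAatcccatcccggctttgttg
Wnt11, 45 CpG in its window, chr7:98835041-98835087, + strand: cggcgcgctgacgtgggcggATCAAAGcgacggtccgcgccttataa
Wnt5b, 7 CpG in its window, chr6:119449431-119449477, - strand: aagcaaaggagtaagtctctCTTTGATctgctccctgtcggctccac

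Dkk1, Wnt11 and Wnt5b were above background and below the stricter threshold. The windows of Ctnnb1 and of the textbook target Axin2, printed above, hold neither sequence, which says only that these letters are absent from those windows.

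Among the 19 ligands, 14 (73.7%) exceeded background on both arrays, against 60.6% of all named genes. The stricter threshold was exceeded by 4 ligands (21.1%), against 38.7% of all named genes. Wnt10a, a ligand known from teeth and hair follicles, gave 7.80 on replicate 1 and 7.82 on replicate 2. Wnt4, known from kidney and gonad development, gave 7.65 and 7.85. Wnt9a, known from joint formation, gave 7.33 and 7.30. These 3 ligands stood between 0.22 and 0.71 log2 units over the mean of the stricter thresholds.

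Wnt7b, a ligand that with Wnt7a acts on brain vessels and on dendrites, gave 7.27 and 7.13, and thus cleared the stricter threshold by 0.10 on average. Its close relative Wnt7a, known from synapse formation, was above background at 6.27 and 6.49. Wnt7a did not reach the stricter threshold on either array. The receptor complex partners through which these 2 ligands act on brain endothelium are Adgra2 and Reck. Adgra2 gave 7.15 and 7.19 and Reck 6.32 and 6.42, both above background. Adgra2 exceeded the stricter threshold on replicate 2 only, and Reck on neither array.

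The other ligands above background lay on average within 1 log2 unit of its threshold. Wnt9b gave 6.63 and 6.39, Wnt2 gave 6.23 and 6.26, and Wnt2b gave 5.98 and 6.23. Wnt5a and Wnt5b, known for signalling without beta-catenin, gave 5.82 and 5.78, and 6.09 and 6.17. None of these 5 ligands passed the chemoreceptor 99th percentile (6.64 on replicate 1, 6.66 on replicate 2). Wnt1, Wnt3a and Wnt10b, which act through beta-catenin, gave 5.93 and 5.78, 5.70 and 6.10, and 6.20 and 5.67. Wnt11, known from gastrulation and heart, gave 5.72 and 6.05. For Wnt1, Wnt3a, Wnt10b and Wnt11 the difference between the arrays was larger than the distance of the array nearer to its background threshold.

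Of the 5 ligands not called, Wnt6 gave 5.63 on both arrays, over the threshold of replicate 1 and under that of replicate 2. Wnt8a at 5.58 and 5.49, Wnt3 at 5.34 and 5.24, Wnt16 at 4.95 and 5.16 and Wnt8b at 4.39 and 4.67 were below background on both arrays. Wnt8a and Wnt8b are known mainly from early embryos.

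Wnt genes lie in pairs that neighbour each other in the genome. According to RefSeq, 4 pairs of members were adjacent protein-coding genes, and their levels are given as means of both arrays. Wnt10a at 7.81 lies beside Wnt6 at 5.63, which was not called. Wnt9a at 7.32 lies beside Wnt3a at 5.90, which was above background and below the stricter threshold. Wnt9b at 6.51, above background, lies beside Wnt3 at 5.29, not above it. Wnt10b at 5.94 and Wnt1 at 5.86 were both above background and below the stricter threshold. In 2 of the 4 pairs, 1 gene was called and its neighbour was not. One of these rests on Wnt6, which missed the call on replicate 2 only, by a margin of -0.012. Of all named genes 60.6% were called, so a called gene beside an uncalled one is common and this count is a description.

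Of the 10 Frizzled genes, which encode the receptors with the Wnt-binding cysteine-rich domain, 7 (70%) exceeded background and 2 (20%) the stricter threshold. The shares of all named genes were 60.6% and 38.7%. Fzd3, known from axon guidance and planar polarity in the brain, gave 10.29 and 10.22. Its mean exceeded that of the background thresholds by 4.63 log2 units and that of the stricter ones by 3.16. Fzd1, found at presynaptic sites of hippocampal neurons, gave 7.52 and 7.60. Both genes had arrays that differed by less than 0.1 log2 units.

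None of the other Frizzled genes passed the chemoreceptor 99th percentile. Fzd4, the receptor for norrin in vessels, gave 6.58 and 6.60. Fzd5 gave 5.96 and 6.09, Fzd6 gave 6.10 and 5.85, Fzd8 gave 5.63 and 5.81 and Fzd9 gave 5.94 and 6.15, all above background. Fzd2 was not called, with 5.19 on replicate 1 and 5.66 on replicate 2, the second of which exceeded its threshold. Fzd7 at 5.26 and 5.21 and Fzd10 at 3.71 and 3.68 were below background on both arrays, Fzd10 by 1.93 log2 units on average (a mean margin of -1.93).

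Both LRP co-receptors were above background, against 60.6% of all named genes. Lrp6 averaged 7.44 and 7.37 over 2 probe sets that disagreed: one gave 9.28 and 9.14, and the other 5.60 on both arrays, below background. Lrp5 gave 6.38 and 6.47 and did not reach the stricter threshold. Of the Lrp6 probe sets, the first exceeded the stricter threshold and the other neither threshold.

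The 4 Dickkopf genes were all above background, against 60.6% of all named genes, but only Dkk3 stood far from it. Dkk1 and Dkk4 exceeded the mean background threshold by 0.07 and 0.24 log2 units. Dkk3, a secreted glycoprotein related to the Wnt inhibitors that does not bind LRP6 as Dkk1 does, gave 11.55 and 11.50. Its mean lay 5.90 log2 units above the mean background threshold and 4.43 above the mean stricter one. The LRP-binding inhibitors Dkk1 and Dkk2 gave 5.67 and 5.72, and 6.16 and 6.39, and Dkk4 gave 5.75 and 5.98. None of these 3 passed the chemoreceptor 99th percentile. Kremen1 and Kremen2, membrane receptors for Dickkopf proteins, gave 8.03 and 8.02, and 6.39 and 6.54.

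Among the inhibitors that bind Wnt proteins directly, Frzb gave 9.18 and 9.08, above every threshold. Frzb and the Sfrp proteins carry a Frizzled-like cysteine-rich domain without a membrane anchor. Sfrp1 gave 6.89 and 7.10 and passed the chemoreceptor 99th percentile, as did Wif1 at 6.71 and 6.69. Sfrp1 exceeded the stricter threshold on replicate 2 and not on replicate 1, and Wif1 on neither.

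Sfrp2 averaged 5.79 and 6.01 and was called above background, from a probe set at 6.27 and 6.25 and another at 5.30 and 5.77, which was below background on replicate 1. Sfrp4 at 5.39 and 5.34 and Sfrp5 at 5.17 and 5.29 were not above background. Of the 10 secreted inhibitors, 8 (80%) exceeded background and 2 (20%), Dkk3 and Frzb, the stricter threshold. The shares of all named genes were 60.6% and 38.7%.

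R-spondins are secreted amplifiers that, with LGR receptors, remove the ubiquitin ligases Rnf43 and Znrf3, which would otherwise clear Frizzled receptors from the membrane. Of the 4 R-spondins, 3 (75%) exceeded every threshold. The stricter threshold was exceeded by 38.7% of all named genes. Rspo1 gave 8.37 and 8.35, Rspo2 gave 8.77 and 8.72 and Rspo3 gave 8.31 and 8.14. They stood 2.73, 3.12 and 2.60 log2 units above the mean background threshold. Rspo4, known from nail development, gave 5.91 and 5.94, above background and below the chemoreceptor 99th percentile.

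Of the R-spondin receptors, Lgr4 gave 8.01 and 7.89, above every threshold. Lgr5, the stem cell marker of the gut, averaged 5.96 and 5.97 over probe sets that fell on different sides of background, at 6.39 and 6.60 and at 5.53 and 5.33. Lgr6 gave 6.11 and 6.36. Of the ligases, Znrf3 gave 7.60 and 7.91, above the stricter threshold, and Rnf43 gave 5.97 and 5.99, above background only.

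The genes of the 6 proteins that relay the signal were all above background, against 60.6% of all named genes. Ctnnb1, which encodes beta-catenin, also a component of cadherin junctions at synapses, gave 10.73 and 10.67. Dvl3 gave 10.06 and 10.08 and Dvl1 gave 8.73 and 8.63. Dvl2 gave 7.05 and 7.00, which passed the stricter threshold on replicate 2 only. A further probe set whose annotation names both Dvl2 and Mir324 was not used to name a gene, and it gave 7.42 and 7.31.

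Axin1 and Axin2 are scaffolds of the complex that destroys beta-catenin, and Axin2 is in addition a target of the pathway. Axin1 gave 7.61 and 7.66. Axin2 averaged 7.34 and 7.48 over probe sets at 8.27 and 8.25 and at 6.40 and 6.70, both above background. The first of these probe sets exceeded the stricter threshold and the second did not.

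The difference between replicate 1 and replicate 2 had an SD of 0.176 log2 units over the 54 members and of 0.218 over all named genes. For genes above background the SD was 0.175 over the 44 members and 0.149 over all such genes. Replicate 1 was higher in 24 members, replicate 2 in 29, and Wnt6 was equal. Wnt10b differed most, by 0.53, and was the only member beyond 0.5, followed by Fzd2 (-0.47) and Wnt3a (-0.40), which were higher on replicate 2.

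**Figure D4:**
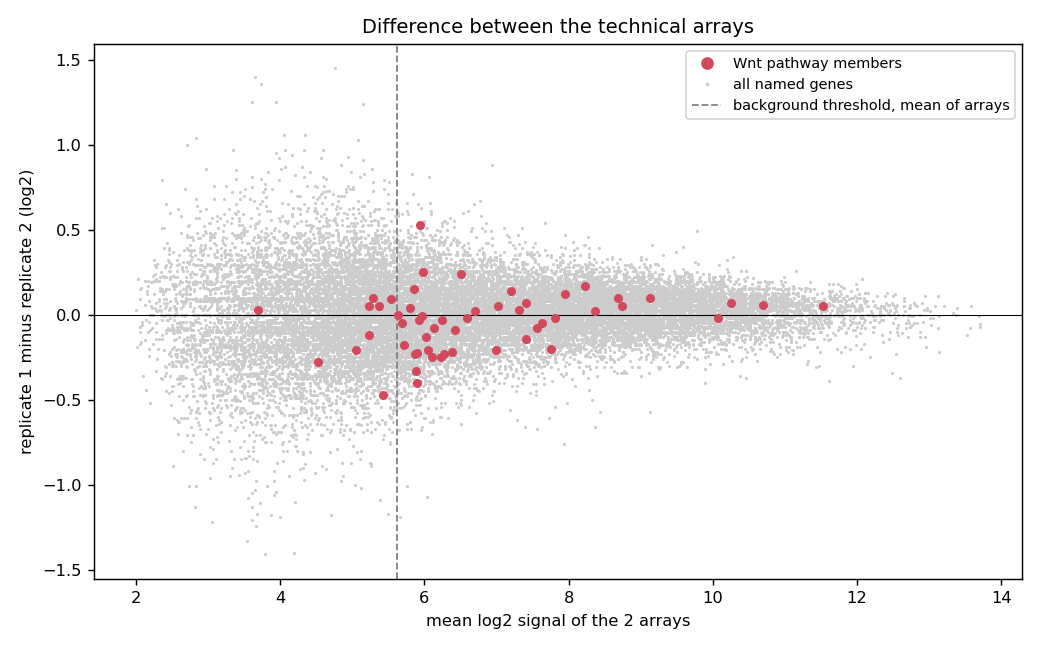
Replicate 1 minus replicate 2 in log2 units against the mean log2 signal, for the 54 members (red) and all named genes (grey), with the mean background threshold (dashed). The members lie between -0.47 for Fzd2 and 0.53 for Wnt10b, and those far above background lie close to 0.

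Other genes of the pathway were counted in fixed lists, and a gene counts as measured where a probe set names it alone. Of 55 measured genes, each counted once, 52 (94.5%) exceeded background, against 60.6% of all named genes, and 30 (54.5%) the stricter threshold, against 38.7%. For the secretion of Wnt proteins, Porcn, which attaches their lipid, gave 10.61 and 10.67, and their carrier Wls gave 7.94 and 7.99. The extracellular enzymes that inactivate Wnt proteins were Notum at 5.77 and 5.74 and Trabd2b at 7.56 and 7.35. Of these 4 genes, Notum alone did not reach the stricter threshold.

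The destruction complex list also takes in Csnk1g1, Btrc, Tnks and Tnks2. Of its 13 genes 11 were measured, while Gsk3a and Csnk1d had no probe set that names them alone. All 11 exceeded background and 9 (81.8%) the stricter threshold, against 60.6% and 38.7% of all named genes. Their median was 8.91. The first members of the list, Apc and Apc2, gave 10.36 and 10.24, and 8.89 and 8.92. The kinases Gsk3b and Csnk1a1 gave 11.88 and 11.80, and 10.68 and 10.65. The genes of this list below the stricter threshold on at least 1 array were Amer1 and Ppp2ca.

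Of 10 alternative receptors and co-factors, 9 (90%) exceeded background and 3 (30%) the stricter threshold, against 60.6% and 38.7% of all named genes. Ror1, a receptor tyrosine kinase for Wnt5a, was the exception at 5.68 and 4.90, with the first value over its threshold. Its relative Ror2 gave 6.27 and 6.43. Ryk, a Wnt receptor of axon guidance, gave 8.63 and 8.76, and Ptk7 gave 6.43 and 6.24. Of 11 planar polarity genes, 10 (90.9%) exceeded background and 6 (54.5%) the stricter threshold. Vangl1, at 5.68 and 5.55, was not called, while Vangl2 gave 6.39 and 6.25, Celsr1 gave 6.38 on both arrays and Celsr2 gave 10.49 and 10.66.

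All 9 measured nuclear factors were above background and 5 (55.6%) exceeded the stricter threshold. Of the DNA-binding members, Tcf7 had no probe set that names it alone. Tcf7l1 gave 5.83 and 5.82, Tcf7l2 gave 5.88 and 5.78 and Lef1 gave 6.62 and 6.51. None of these 3 passed the chemoreceptor 99th percentile. Bcl9, an adaptor that binds beta-catenin, gave 9.62 and 9.66. Of 11 measured target genes, which share 6 members with the other lists, 10 (90.9%) exceeded background and 4 (36.4%) the stricter threshold. The shares of all named genes were 60.6% and 38.7%. Sp5 gave 5.62 and 5.67, Nkd1 gave 6.93 and 6.61, and Cdx1, a target known from intestine, was not called at 5.65 and 5.57. All 5 genes of receptor turnover and feedback exceeded background, and besides Rnf43, Znrf3 and Nkd1 they included Nkd2 at 7.02 and 6.84.

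**Figure D5:**
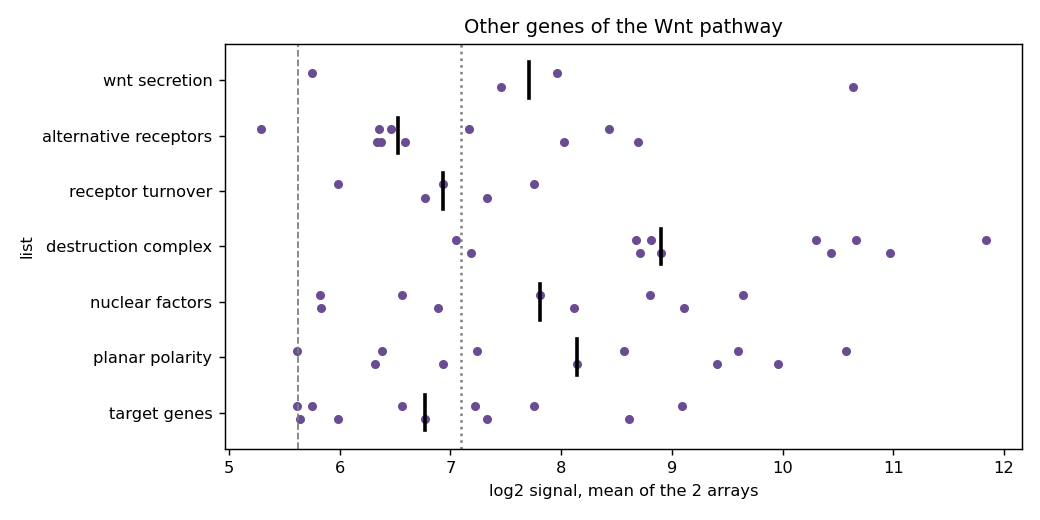
Mean log2 signal of both arrays for the measured genes of 7 fixed lists of other Wnt pathway genes, 1 point per gene, with the list median (black bar), the background threshold (dashed) and the stricter threshold (dotted), each drawn at the mean of both arrays. All 11 points of the destruction complex list and 10 of the 11 target genes were above background on both arrays.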

How the data were processed

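The series compares no conditions: 2 arrays, taken to share 1 pool, were labelled with the Affymetrix WT Plus kit, per the labels' protocols. The authors deposited 1 value per probe set and array, read here as log2 signals from their range, since the log base is not stated. The background correction, summarisation, normalization and genome build are not stated in the labels or the file, and 0 of the file's sample columns went unused. Depth has no counterpart on an array, and precision is limited by the number of arrays.

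Of 34472 probe sets, 23521 name 1 gene, 1814 several and 9137 none here. Probe sets of a gene were averaged (Python 3.11.15, pandas 2.3.3, NumPy 2.4.6), thresholds were taken as described with the results, and no significance test was made. The calling step was tested on simulated data only with values set 1 log2 unit above or below the threshold. Calling closer to a threshold was not tested. The members, lists and thresholds were chosen with earlier results of these data known. Every member is named. Of the other pathway lists, the first 4 measured genes and those on the other side of background from most of their list are named, and cell type lists are given by counts; any further gene was picked with its value known. The alternatives were other percentiles and background genes, the array's median probe set, a gene's highest probe set, restriction to genes with 1 probe set, quantile normalization, and single arrays. Sequence windows come from RefSeq, build GRCm38.p6.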

Additional observations from a re-analysis of the deposited data

How the results depend on the processing

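The threshold moved the counts more than any other choice tried. Of the 44 members above background, 21 remained at the chemoreceptor 99th percentile, 18 at the 95th percentile of the out-of-tissue genes and 35 at the median of all probe sets. Counts by role changed by over 1.5 times as follows. At the 99th percentile, 4 ligands, 2 Frizzled genes, 1 Dickkopf gene, 1 LGR gene and 1 LRP gene passed. At the out-of-tissue threshold, 4 ligands, 2 Frizzled genes and 1 each of the Dickkopf, Wnt-binding inhibitor, LGR and LRP genes passed, and 30 of the 52 other pathway genes did. At the median of all probe sets, 9 ligands and 2 Dickkopf genes passed. With only genes of 1 probe set, 1 Axin and 1 LRP gene were left to count, since Axin2 and Lrp6 have 2 probe sets each. The highest probe set and quantile normalization changed 0 background calls of members, restriction to genes with 1 probe set called 41 members with Wnt6 added, and each array alone gave 45 members, adding Fzd2 on replicate 2 and Wnt6 on replicate 1.

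At the stricter threshold the count of 18 members ranged from 16 with the highest probe set, where Wnt7b and Wnt9a were lost, to 20 on replicate 2 alone. That threshold hangs on few genes: without Acta1 and Odf1, an alternative chosen after seeing the data, it dropped to 6.37 and 6.34 and 24 members passed. For the background call, 18 members were above in each planned setting in which they were measured (Axin2 and Lrp6 were not among genes with 1 probe set), 8 in none and 28 in some. No paired analysis was possible because the arrays form 1 group. Signals near background limit every call there, and no detection p-value was at hand.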
